A study of Mus musculus with 8 samples.

Results

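Glycerolipid acyltransferases and lipin build triglyceride and membrane phospholipid from glycerol-3-phosphate, and 10 of their genes were followed here in the array data of Co mice and Pg mice. The genes were *Gpam*, *Agpat6*, *Agpat9*, *Agpat1*, *Agpat2*, *Agpat3*, *Agpat5*, *Lpin1*, *Dgat1* and *Dgat2*. All 22 non-control probes that carry one of these names on the array were taken, of 56605 probes and 37074 gene names in all. *Agpat6* is the array's older name for *Gpat4*, and *Agpat9* for *Gpat3*. The family was chosen by name, but selected on earlier results of these data, the differences of its probes between Pg and Co mice. The counts and p-values of its members therefore describe these arrays and are not independent evidence.

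Co and Pg were groups of 4 mice each, all C57BL/6J, 12 weeks old and, by the study's methods, male. Both groups received 100 μL of saline intravenously, and in the Pg group the saline carried sonicated *P. gingivalis*, a bacterium of periodontal disease. The sample labels print the dose as 108 CFU, and the methods give it as 10 to the power of 8. RNA was taken 18 h later from tissue labelled brown adipose tissue, and each mouse had 1 single-color Agilent array, so that p-values measure the spread between mice of 1 experiment. The comparison asks how a single exposure to bacterial material changes expression in this tissue. A level below is the log2 of a probe's background-subtracted signal after quantile normalization over all 8 arrays. Each probe binds its target with its own strength, so a level is compared between mice for 1 probe and never between probes.

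The first step of the pathway, made by glycerol-3-phosphate acyltransferases (GPATs), puts a fatty acid on glycerol-3-phosphate and gives lysophosphatidate. The second, by 1-acylglycerol-3-phosphate acyltransferases (AGPATs), adds another and gives phosphatidate. Lipins take off the phosphate to give diacylglycerol, and diacylglycerol acyltransferases (DGATs) close the pathway with triglyceride. In brown fat the triglyceride fills many small droplets that feed heat production, and in muscle it forms smaller stores used during work.

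The label of the tissue was set against marker genes before the members were compared. The only probe of *Ucp1*, the uncoupling protein that defines brown adipocytes, was well above background on none of the 8 arrays (levels of 2.09 to 2.26), nor were those of *Elovl3*, *Slc27a2* and *Bmp8b*. The other 11 of 15 brown adipocyte markers, *Cidea* among them, were above background on all 8 arrays. All 20 skeletal muscle markers were too, with levels of 18.41 to 18.57 for *Acta1*, skeletal muscle actin, and 16.77 to 17.02 for *Ckm*, muscle creatine kinase. The adipocyte hormone gene *Adipoq* had levels of 9.61 to 11.31 in Co mice and 9.84 to 11.09 in Pg mice. The samples are therefore called by their label only. How much of the signal of the members, or of the brown adipocyte markers, came from muscle was not tested. In such bulk RNA, fewer cells of a type and less RNA per cell cannot be told apart.

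All 22 member probes passed the filter for testing, which asked for signal well above background on at least 4 arrays, and 21 did so on all 8. The exception was a probe of *Agpat5*, with 4 Co arrays and 1 Pg array above background. Over the whole array, 34760 to 35830 probes per Co mouse and 31132 to 34063 per Pg mouse were above background, with no overlap (p = 0.0286 in a two-sided exact permutation test, which with 4 against 4 gives none smaller). Negative control spots spread by 8.10 to 9.75 units of intensity in Co mice, and by 11.6 to 18.7 in Pg mice. All arrays lay on 1 slide, Co in row 1 and Pg in row 2, with the replicate number as the column. Slide row and group therefore cannot be told apart.

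Most of the changes were small, and the clearest lay in *Agpat6*. Of the 22 probes, 4 had an adjusted p (limma, Benjamini-Hochberg over all 33819 tested probes) under 0.1, the limit of the study's methods, and all 4 were lower in Pg mice. They belonged to *Agpat6* with 2 probes, *Agpat2* and *Agpat5*, and the other 7 genes had none. None of the 4 was the brightest probe of its gene. Read by brightest probes, as the pathway list is below, no member gene had a call. The *Agpat5* probe passed the filter through the Co arrays, and among the 21 probes above background on all 8 arrays 3 were called and 1 was a DEG, where 7.83% of all 29222 such probes were called in the same fit and 0.907% were DEGs. The share was 18.2% of the member probes, against 7.82% of all tested probes at this limit, 6.00% lower and 1.82% higher. With the fold change above 1.5 that the methods ask of a DEG, 2 member probes were left, 1 of *Agpat6* and 1 of *Agpat5*, where 1.61% of all probes were DEGs, 1.30% downregulated and 0.313% upregulated. The direction of DEGs over the array depended on the processing. Of the DEGs 440 of 546 were lower in Pg mice here. Lower ones were also most with no filter on dim probes (290 of 372), with probes above background on all 8 arrays (211 of 318) and with an intensity trend (413 of 563). The count was 28 of 94 with normexp background correction, 33 of 108 with the median signal and 146 of 283 with scaling to the 75th percentile. It was 7 of 27 with no normalization and 46 of 106 with the authors' log2 values. None of the member probes tested was a DEG under the last 5 settings, but the authors' table held only 14 of the 22, without the *Agpat6* probe at base 1915. In direction, 18 probes were lower and 4 higher, or 81.8% lower against 57.7% of all tested probes. For 8 probes all Pg mice lay below all Co mice, and for none was it the reverse. That was 36.4% of the member probes, beside 11.0% of all tested probes without overlap and lower, and 4.83% without overlap and higher. Among the 21 probes above background on all 8 arrays it was 7, or 33.3%, beside 11.1% of all such probes. The median log2 difference was -0.12 over the member probes and -0.04 over all tested probes, and the members above background on all 8 arrays ran from -0.60 to 0.13, with the *Agpat5* probe fitted at -0.66.

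**Figure D1:**
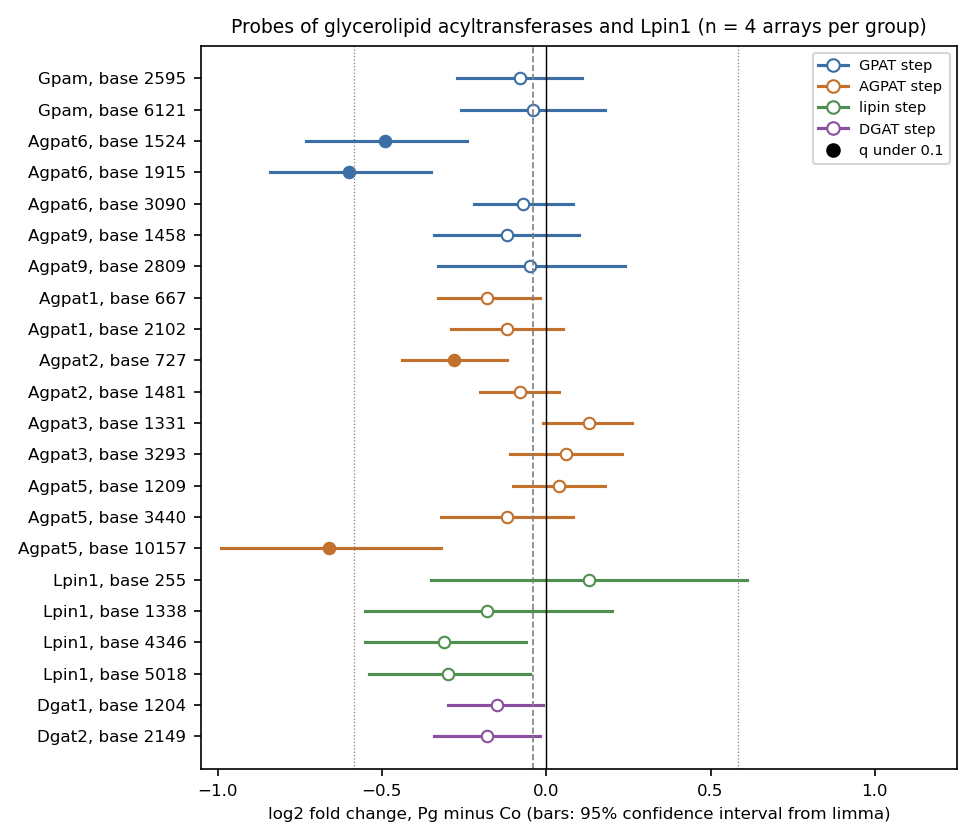
Log2 fold change of each member probe, Pg minus Co (x axis), with the 95% confidence interval from limma (n = 4 arrays per group). Rows give the gene and the base of the transcript where the probe begins, colors the step of the pathway, and filled points an adjusted p under 0.1; the dashed line is the median of all tested probes and the dotted lines a fold change of 1.5. The 4 filled points, at -0.28 to -0.66, all lie left of 0, and the highest of the 22 points is at 0.13.

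*Agpat6*, *Agpat2* and *Agpat9* are read by probes at different places of the same transcript, and the sequences of those on which the comparison rests are given here. All are 60 bases long on the array, are taken from the deposited scanner output, and are written 5′ to 3′. The pair of upstream *Agpat6* probes (bases 1524 and 1915 of NM_018743) and the upstream *Agpat2* probe (base 727 of NM_026212) are those of these genes that passed the limit, lower in Pg mice. The array's mm9 annotation puts the *Agpat6* probes on the minus strand at chr8:24291416-24292298 and chr8:24289932-24290259, spans of 883 and 328 bases, so that each crosses an exon junction. For the *Agpat2* probe the annotation places only 27 of the 60 bases, and no position is given.
*Agpat6*, base 1524: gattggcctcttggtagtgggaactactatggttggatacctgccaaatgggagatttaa
*Agpat6*, base 1915: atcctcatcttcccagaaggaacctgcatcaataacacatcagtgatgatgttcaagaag
*Agpat2*, base 727: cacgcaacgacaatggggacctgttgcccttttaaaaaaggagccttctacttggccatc

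The downstream probes of the same genes, which did not pass the limit, are shown by their last 30 bases. Capitals mark AATAAA, the common poly(A) signal, searched on the strand written here only.
*Agpat6*, base 3090: attgtttgtgagtaAATAAAactggatggt
*Agpat9*, base 2809: tcttactgactatgAATAAAttttatattt
*Agpat2*, base 1481: ttggttctttttctataaatgaactctcag
The letters AATAAA occur in 4 of the 22 member probes, the furthest downstream probe of *Agpat6*, *Agpat9*, *Agpat1* and *Agpat3* each, and in 9.77% of all 56605 probes. Over the array's transcripts with at least 2 tested probes, they occur in 2.11% of the most upstream probes and in 19.1% of the most downstream ones. A match describes the letters of a probe and does not show where a transcript ends.

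At the GPAT step, *Agpat6* was lower in Pg mice by its upstream probes, whereas *Gpam* and *Agpat9* did not pass the test. *Agpat6* encodes GPAT4, an enzyme of the endoplasmic reticulum. Its probe at base 1915 had levels of 8.10, 8.13, 7.96 and 7.84 in Co mice 1 to 4 and 7.32, 7.67, 7.38 and 7.28 in Pg mice 1 to 4. Every Pg mouse lay below every Co mouse, and Pg mouse 2 was closest to them. The means were 8.01 ± 0.13 and 7.41 ± 0.18 (SD, n = 4), a log2 difference of -0.60 ± 0.11 (SE) or 1.51-fold, with an adjusted p in limma of 0.0509. This probe was a DEG, just past the fold change limit, and fell below that limit with normexp background correction, at -0.47, and with the median signal, at -0.48.

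The *Agpat6* probe at base 1524 had levels of 8.32, 8.47, 8.19 and 8.26 in Co mice and 7.65, 7.99, 7.98 and 7.67 in Pg mice. Again no values overlapped, and Pg mice 1 and 4 were the lowest. The log2 difference was -0.49 ± 0.11 (SE), or 1.40-fold, with an adjusted p in limma of 0.0650. The probe at base 3090, the furthest downstream, had levels of 12.96, 12.83, 12.83 and 12.88 in Co mice and 12.77, 12.69, 12.92 and 12.85 in Pg mice. Here the groups overlapped, and the log2 difference was -0.07, with a 95% interval of -0.22 to 0.08 (limma adjusted p = 0.570). The 3 probes carry the same transcript accession and gave differences of unequal size. They differ in place, brightness and binding, and which of these goes with the size of the difference was not tested. Among tested probes within 0.5 log2 units of the same mean level, the median difference was -0.04 around the probe at base 1524, -0.05 around that at base 1915 and 0.01 around that at base 3090.

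Both *Agpat6* calls depended on single arrays and on the normalization. With no normalization between arrays the limma adjusted p was 0.157 at base 1915 and 0.169 at base 1524. With 1 array left out, the probe at base 1915 kept an adjusted p under 0.1 in 5 of 8 limma fits, and the p was 0.118 without Co replicate 2, 0.113 without Co replicate 3 and 0.104 without Pg replicate 1. The log2 difference stayed between -0.55 and -0.68. The probe at base 1524 kept it only without Pg replicate 2 or 3, and also lost it with no filter on dim probes (0.104). Its p was 0.119, 0.142, 0.123 and 0.115 without Co replicates 1 to 4, and 0.125 and 0.126 without Pg replicates 1 and 4, with log2 differences of -0.43 to -0.54 over the 8 fits.

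*Gpam* encodes the GPAT of the outer mitochondrial membrane, which feeds triglyceride synthesis in liver and fat. Its probe at base 6121 had levels of 15.19, 14.95, 15.11 and 15.29 in Co mice and 15.14, 15.07, 14.94 and 15.24 in Pg mice, with a log2 difference of -0.04 and a 95% interval of -0.26 to 0.18. The other, at base 2595, ran from 8.29 to 8.49 in Co mice and from 8.17 to 8.45 in Pg mice (difference -0.08, interval -0.27 to 0.11). *Agpat9*, which encodes GPAT3, the GPAT that rises when fat cells mature, also overlapped at both probes. At base 1458 its levels were 8.10 to 8.44 in Co mice and 8.06 to 8.32 in Pg mice (difference -0.12, limma adjusted p = 0.488), and at base 2809 they were 11.58 to 12.07 and 11.68 to 11.97 (difference -0.05, limma adjusted p = 0.852). The intervals of all 4 probes hold 0.

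At the AGPAT step, 1 probe each of *Agpat2* and *Agpat5* was lower in Pg mice, and *Agpat1* and *Agpat3* did not pass the test. *Agpat2* encodes the AGPAT that fat cells need to form droplets, and its loss causes a lipodystrophy. Its probe at base 727 had levels of 9.73, 9.57, 9.75 and 9.63 in Co mice and 9.27, 9.49, 9.41 and 9.37 in Pg mice. The groups did not overlap, with Pg mouse 1 lowest. The log2 difference was -0.28 ± 0.07 (SE), or 1.21-fold, with an adjusted p in limma of 0.0796. Tested probes within 0.5 log2 units of its mean level had a median difference of -0.02. For base 727 the limma adjusted p was 0.110 to 0.167 in the 8 fits with 1 array left out, so that leaving out any of the 8 mice ended this call. The difference stayed between -0.24 and -0.32. The lowest of these p came without Pg replicate 3 and the highest without Co replicate 3. The call also ended with the median signal (limma adjusted p 0.112), with no filter on dim probes (0.114) and with no normalization (0.306).

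The other *Agpat2* probe, at base 1481, had levels of 13.03, 12.93, 12.99 and 13.02 in Co mice and 12.93, 12.94, 12.87 and 12.90 in Pg mice. Co mouse 2 lay among the Pg mice. The log2 difference was -0.08, with an interval of -0.20 to 0.04 (limma adjusted p = 0.380).

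**Figure D2:**
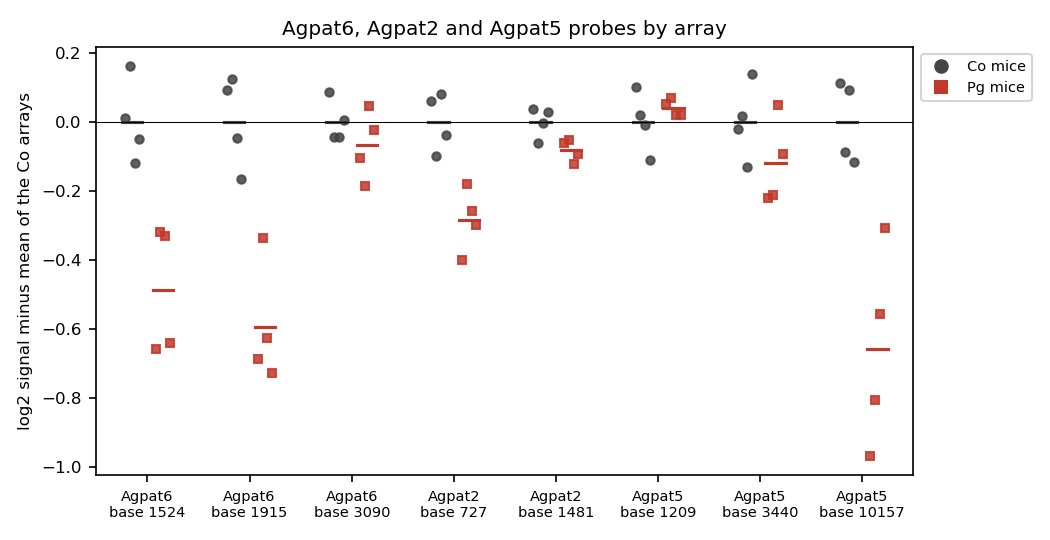
Level of each *Agpat6*, *Agpat2* and *Agpat5* probe in every mouse, as log2 signal minus the mean of the Co arrays (y axis), for Co mice (grey circles) and Pg mice (red squares), with group means as bars. The x axis names the probe by the base of its transcript. The Pg mice lie below all Co mice at the *Agpat6* probes of bases 1524 and 1915, at *Agpat2* base 727 and at *Agpat5* base 10157, and overlap with the Co mice at the other 4 probes.

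*Agpat5* encodes an AGPAT found at mitochondria and the endoplasmic reticulum, and its 3 probes did not move alike. The probe at base 10157 of ENSMUST00000149565 had levels of 4.64, 4.44, 4.62 and 4.41 in Co mice and 3.56, 3.72, 3.97 and 4.22 in Pg mice. The groups did not overlap, and Pg mouse 4, the highest, came close to the Co mice. The array's mm9 annotation puts this probe at chr8:18890740-18890799, downstream of the other probes of the gene, the last of which ends at 18884084. Its assignment to *Agpat5* rests on the array's gene name. Only 1 of the 4 Pg arrays was well above background, so that the size of the difference is uncertain. As fitted, the log2 difference was -0.66 ± 0.14 (SE), with an adjusted p in limma of 0.0649, past both limits of a DEG. It was also the dimmest member. Tested probes within 0.5 log2 units of its mean level had a median difference of -0.18. With normexp background correction of the mean signal the difference was -0.16 and the limma adjusted p 0.126, and the call also ended with scaling to the 75th percentile (0.120), with no filter (0.106), with no normalization (0.226) and with the intensity trend (0.130). The call held only without Pg replicate 3 or 4 in the fits with 1 array left out. It ended without Co replicates 1 to 4, with a p of 0.122, 0.131, 0.138 and 0.109, and without Pg replicates 1 and 2, with a p of 0.115 and 0.130.

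The other *Agpat5* probes share the accession NM_026792. At base 1209 the levels were 11.03, 10.95, 10.92 and 10.82 in Co mice and 10.98, 11.00, 10.95 and 10.95 in Pg mice, with a log2 difference of 0.04 and an interval of -0.10 to 0.18. At base 3440 they were 8.03, 8.07, 7.92 and 8.19 against 7.83, 7.84, 8.10 and 7.96, with a difference of -0.12 and an interval of -0.32 to 0.08. Neither separated the groups.

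*Agpat1* encodes a widely expressed AGPAT of the endoplasmic reticulum. Its probe at base 667 had levels of 7.81, 8.01, 7.79 and 7.92 in Co mice and 7.76, 7.74, 7.68 and 7.65 in Pg mice. The groups came close without overlapping, at Co mouse 3 and Pg mouse 1, and the log2 difference of -0.18 had a limma adjusted p of 0.175. At base 2102 of a second *Agpat1* accession the levels were 11.73 to 11.93 and 11.64 to 11.86, with a difference of -0.12 (limma adjusted p = 0.380). *Agpat3*, an enzyme of the Golgi and endoplasmic reticulum, was higher in Pg mice by both probes without passing the test. Its probe at base 1331 had levels of 14.62, 14.61, 14.63 and 14.64 in Co mice and 14.76, 14.79, 14.63 and 14.83 in Pg mice. Pg mouse 3 lay among the Co mice, and the difference was 0.13, with an interval of -0.01 to 0.26 (limma adjusted p = 0.250). Its probe at base 3293 ran from 12.38 to 12.68 and from 12.54 to 12.64 (difference 0.06, limma adjusted p = 0.654).

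At the lipin step, the probes near the end of *Lpin1* were lower in Pg mice without overlap, and did not pass the test. Lipin-1 is the phosphatidate phosphatase of fat and muscle, and it also acts in the nucleus as a partner of transcription factors. At base 4346 the levels were 12.18, 11.92, 12.01 and 12.12 in Co mice and 11.81, 11.48, 11.88 and 11.84 in Pg mice. The log2 difference was -0.31 ± 0.11 (SE), with an interval of -0.55 to -0.06 (limma adjusted p = 0.144). At base 5018 they were 12.84, 12.52, 12.57 and 12.57 in Co mice and 12.45, 12.08, 12.39 and 12.40 in Pg mice. That difference was -0.30 ± 0.11 (SE), with an interval of -0.54 to -0.05 (limma adjusted p = 0.158). At both probes Pg mouse 2 was the lowest and Co mouse 1 the highest of the 8 mice. The median difference was 0.00 over tested probes within 0.5 log2 units of the mean level of each.

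The other *Lpin1* probes did not separate the groups. At base 255 the levels were 6.83, 6.17, 6.42 and 6.06 in Co mice and 6.65, 6.41, 6.84 and 6.11 in Pg mice (difference 0.13, interval -0.35 to 0.61). The probe of the transcript AK141489 had levels of 6.76, 6.98, 6.29 and 6.58 against 6.61, 6.41, 6.66 and 6.20 (difference -0.18, interval -0.55 to 0.20). These were the probes with the widest spread between mice of 1 group among *Lpin1* probes, with SDs of 0.21 to 0.34, and their intervals hold both 0 and the difference seen further downstream.

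At the DGAT step, both genes were slightly lower in Pg mice, and neither passed the test. DGAT1 and DGAT2 are unrelated enzymes that make triglyceride from diacylglycerol, and DGAT2 is tied to fat made within the cell. The probe of *Dgat2* had levels of 16.11, 15.87, 15.93 and 15.93 in Co mice and 15.77, 15.71, 15.79 and 15.85 in Pg mice. The groups came close without overlapping, at Pg mouse 4 and Co mouse 2. The log2 difference was -0.18 ± 0.07 (SE), with an interval of -0.34 to -0.02 (limma adjusted p = 0.176). The probe of *Dgat1* had levels of 9.35, 9.38, 9.30 and 9.36 in Co mice and 9.13, 9.11, 9.31 and 9.22 in Pg mice. Pg mouse 3 lay among the Co mice, and the difference was -0.15 ± 0.06 (SE), with an interval of -0.30 to -0.01 (limma adjusted p = 0.195).

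**Figure D3:**
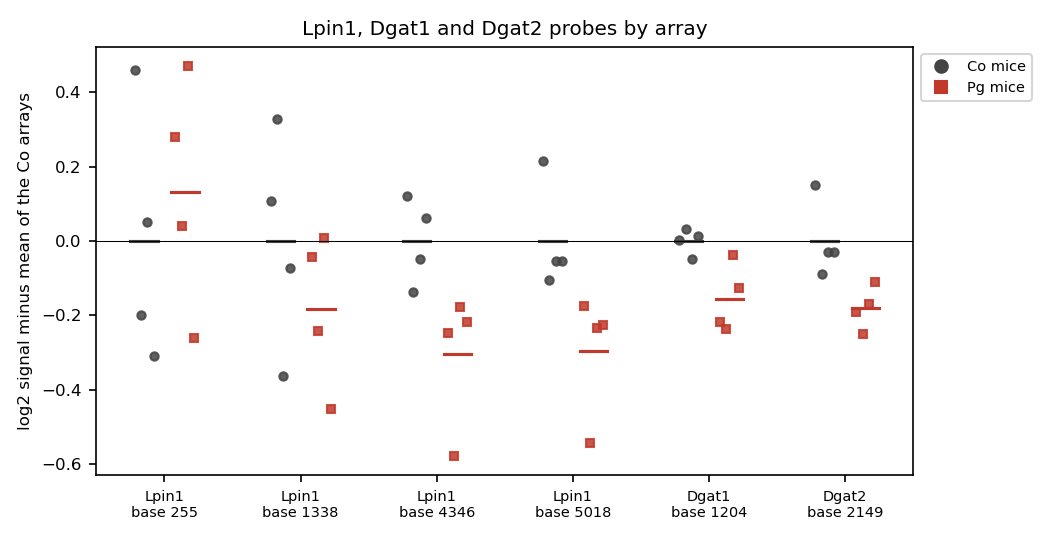
Level of each *Lpin1*, *Dgat1* and *Dgat2* probe in every mouse, as log2 signal minus the mean of the Co arrays (y axis), for Co mice (grey circles) and Pg mice (red squares), with group means as bars. The x axis names the probe by the base of its transcript, and base 1338 is that of AK141489. The groups do not overlap at the *Lpin1* probes of bases 4346 and 5018, where the means differ by -0.31 and -0.30, nor at *Dgat2*.

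*Agpat6* and *Agpat2* passed the limit at upstream probes and did not pass it at their downstream ones. The most upstream and the most downstream tested probe of a transcript were therefore compared over the array. This measure was chosen after seeing the values. Over 4552 transcripts with at least 2 tested probes, the level of the upstream probe minus that of the downstream one was lower in Pg mice by a median of -0.12, and was lower for 70.9% of the transcripts. By array, with the Co mean of each transcript set to 0, the median was 0.01, 0.01, -0.01 and -0.02 in Co mice and -0.14, -0.11, -0.10 and -0.16 in Pg mice. Every Pg array lay below every Co array (p = 0.0286 in a two-sided exact permutation test, the smallest of 70 splits). The median was -0.09 over the 915 transcripts whose probes both had mean levels above 10.

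Against these transcripts, the members lay on both sides of the median. The change of upstream minus downstream was -0.42 for *Agpat6*, at percentile 11.4 of the 4552 transcripts. It was -0.20 for *Agpat2*, at percentile 37.3, and -0.08 for *Agpat9*, at percentile 59.1. The *Agpat3* and *Agpat5* pairs moved the other way, by 0.07 and 0.16. For *Lpin1* the change was 0.43, at percentile 96.3, since its downstream probes were the lower ones. So the change of upstream minus downstream of *Agpat2* was within what many transcripts showed on these arrays, and that of *Agpat6* was larger than the median transcript's. The part of this shift in the *Agpat6* and *Agpat2* differences was not tested. For *Agpat2* the contrast depended on the background step. Its upstream and downstream probes differed between groups by -0.28 and -0.08 here. They differed by -0.24 and -0.16 with normexp, and by -0.23 and -0.16 with the median signal. With scaling to the 75th percentile they differed by -0.30 and -0.12, and with no normalization by -0.25 and -0.07.

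**Figure D4:**
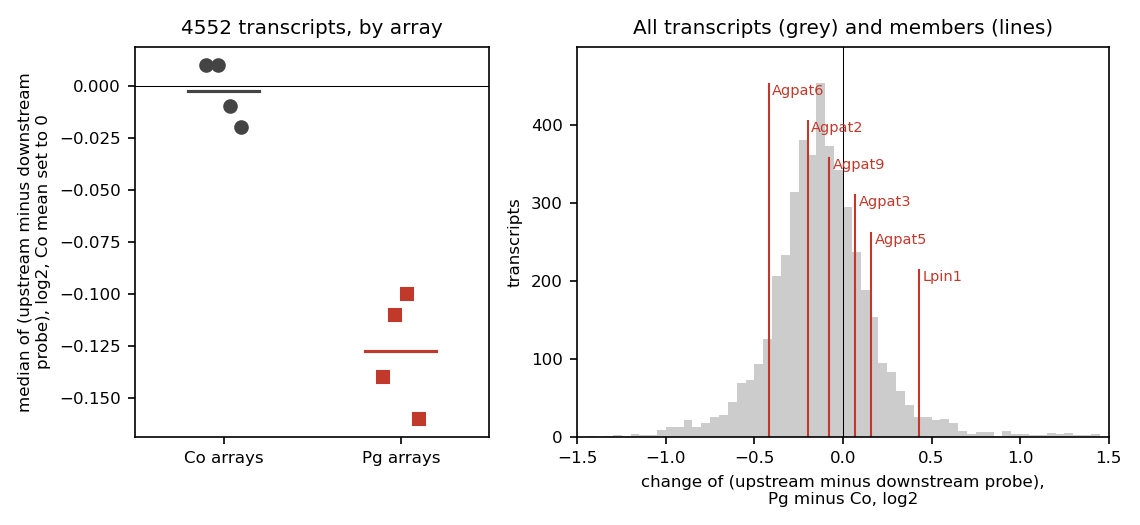
Left, the median over 4552 transcripts of the upstream minus the downstream probe by array, in log2 units with the Co mean of each transcript set to 0 (points, arrays; bars, group means). Right, the number of transcripts (y axis) by the change of that difference, Pg minus Co in log2 units (x axis), with lines for the 6 members that have such a pair. The Pg arrays lie at -0.10 to -0.16, below the Co arrays, and the members run from -0.42 for *Agpat6* to 0.43 for *Lpin1*.

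The other genes of the pathway were split in direction by their brightest probes, and mostly lower when every probe was counted. A list of 36 genes, each read by its brightest tested probe, had 19 lower and 17 higher in Pg mice and a median log2 difference of -0.01. By these probes none had a limma adjusted p under 0.1, and 5 did not overlap between groups (13.9%, beside 11.0% lower and 4.83% higher over all tested probes). An unadjusted limma p under 0.05 was found for 8, but the share of all tested probes at that limit was not counted, so the 8 cannot be read as an excess. Counted over every probe, as the members were, 47 of 70 tested probes were lower and 23 higher, or 67.1% lower beside 57.7% of all tested probes. Of the 70, 3 were called (4.29%, beside 7.82% of all tested probes), all lower, of *Acsl1* and *Acsl4*. *Acsl1*, the main acyl-CoA synthetase of fat and muscle, had levels of 7.12 to 7.47 in Co mice and 6.16 to 6.99 in Pg mice at its dimmest probe (difference -0.81, limma adjusted p = 0.0659), and of 13.16 to 13.40 and 12.71 to 13.08 at another (difference -0.34, limma adjusted p = 0.0983). At its brightest probe the difference was 0.00 (limma adjusted p = 0.991). The called *Acsl4* probe ran from 7.80 to 7.85 in Co mice and from 7.33 to 7.72 in Pg mice (difference -0.34, limma adjusted p = 0.0816). By the brightest probes, a variant of limma with a trend over the mean level called 2 of them, *Acsl4* and *Dgkz*. Leaving out Pg replicate 3 also called 2, *Agpat4* and *Lclat1*, which are further acyltransferases of lysophospholipids.

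By role, 6 of 10 genes of precursor supply were lower and 4 higher, and 2 of 5 other acyltransferases were lower. Of 7 other phosphatidate phosphatases and lipin regulators, 3 were lower and 4 higher, and of 11 enzymes that take phosphatidate or diacylglycerol elsewhere, 5 were lower and 6 higher. All 3 genes of lipid droplet assembly were lower, by 0.04 to 0.13 on the log2 scale, and none of these passed the test. Among the brightest probes the lowest p-values belonged to *Acsl4*, *Dgkz* and *Acsl6*. *Acsl4*, which activates arachidonate for esterification, had levels at its brightest probe of 11.21, 11.39, 11.37 and 11.24 in Co mice and 11.19, 10.94, 11.10 and 11.07 in Pg mice (difference -0.23, limma adjusted p = 0.133). The levels of *Dgkz*, a kinase that turns diacylglycerol back into phosphatidate, were 12.42 to 12.76 in Co mice and 12.73 to 12.91 in Pg mice (difference 0.25, limma adjusted p = 0.146). *Acsl6*, another acyl-CoA synthetase, had levels of 9.65 to 9.91 and 9.19 to 9.68 (difference -0.33, limma adjusted p = 0.153).

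Markers of the cell types the tissue could hold were measured beside the family. Of 15 adipocyte markers, 10 were higher and 5 lower in Pg mice, none at an adjusted p under 0.1 in limma, and the log2 of their summed signal was 18.29 to 18.52 in Co mice and 18.25 to 18.36 in Pg mice. Of 20 muscle markers, 17 were lower and 3 higher, 1 of them at that limit, *Atp2a1*, the calcium pump of fast muscle, with a log2 difference of -0.44 (limma adjusted p = 0.0411). Their summed signal was 21.92 to 22.02 in Co mice and 21.87 to 21.98 in Pg mice, but its brightest probes lie at the top of the scale, which quantile normalization holds nearly equal between arrays (*Tnnt3* and *Tnni2* at 18.81 to 18.84), so that these sums say little about muscle content. Some muscle markers varied widely within a group. *Myh4* ran from 13.38 to 16.97 in Co mice and from 11.38 to 17.07 in Pg mice, and *Actn3* from 11.78 to 13.65 and from 10.49 to 14.01. Both were lowest in Co mouse 3 and Pg mouse 1 of their groups. Whether the members followed them was not tested. Macrophage markers gave 8 higher and 2 lower, with no call, and a summed signal of 15.14 to 15.37 against 15.06 to 15.77. Of 11 brown adipocyte markers tested, 5 were higher and 6 lower with no call, and *Dio2*, the deiodinase that activates thyroid hormone, had a difference of 0.59 (limma adjusted p = 0.129). Of 6 neutrophil markers tested, none was called. *S100a8* and *S100a9* had differences of 2.16 and 2.04 (limma adjusted p = 0.132 and 0.195), and *Mpo*, *Ly6g*, *Camp* and *Elane* of 0.22, 0.09, 0.01 and -0.03. *S100a8* had levels of 4.56 to 5.33 in Co mice and of 8.59, 8.32, 5.18 and 6.76 in Pg mice 1 to 4, so that Pg mice 1 and 2 were high and Pg mouse 3 lay among the Co mice. The adipocyte markers varied more between mice than the members did. The range over the 8 arrays had a median of 0.90 for the adipocyte markers (0.18 to 2.34) and of 0.37 for the 22 member probes (0.16 to 1.08). The part of these cell types in the members' differences was not tested.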

How the data were processed

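Expression was measured in 8 mice, 4 Co and 4 Pg, on single-color Agilent arrays. The authors deposited the scanner output of Agilent Feature Extraction 11.0.1.1 for each array, with the intensity of every spot before normalization between arrays. The authors also deposited a table of quantile-normalized log2 values. Its fold changes, moderated statistics and p-values are the authors' own comparison and were not used.

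Outlier spots were left out, spots of a probe averaged (background-subtracted signal), arrays quantile-normalized, values raised to at least 1 and log2-transformed in R 4.3.3. Probes well above background on at least 4 of 8 arrays were kept (33819 of 56605). Groups were compared by the two-sided test of limma 3.58.1 with Benjamini-Hochberg adjusted p-values. The procedure was run on simulated arrays with changes larger than those of the members and no shift common to a group. That run therefore does not speak to calls of the members' size. An adjusted p under 0.1 was the limit, and a DEG also had a fold change above 1.5. Precision is limited by the number of arrays. The 10 genes were matched to RefSeq (GRCm38.p6) by the accession of 20 of the 22 probes. Probe positions are those of the array's mm9 annotation.

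Members and lists were chosen with earlier results of these data known. Every member probe is named. Of the pathway genes the 3 with the lowest p are named, and the markers *Ucp1*, *Adipoq*, *Acta1* and *Ckm*, and genes named beyond these were chosen after their values were seen. *Plin1*, also in the rule, had 2 of 3 probes below background on some arrays, and its brightest ran from 6.53 to 8.27. Lists of neutrophil (6 of 10 tested, 5 higher), endothelial (6, of which 3 were higher, with *Kdr* called, and 3 lower, median -0.02) and red blood cell genes (3, all lower, none called) were also measured. Alternatives were other background steps, scalings, filters, an intensity trend, the replicate number as a block, the authors' values and leaving out each array.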

Additional observations from a re-analysis of the deposited data

Results flagged for a closer look

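The gap of 1 mouse to the others was tested in each group for each of the 22 member probes. Of 44 such groups 2 stood out, where chance gives about 1 in 20. Both were of the *Lpin1* probe at base 5018. Co replicate 1 had a level of 12.84 where the other Co mice had 12.52 to 12.57, and Pg replicate 2 had 12.08 where the other Pg mice had 12.39 to 12.45. Both lie on the outer side of their group.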

How the results depend on the processing

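The count of called probes depended on the processing. It was 2644 over all probes and 4 among the members, and 546 and 2 as DEGs. The calls over all probes and among members were 3452 and 3 with normexp, 3065 and 4 with the median signal, 3009 and 3 with probes above background on all 8 arrays, 3484 and 5 with the intensity trend, 1546 and 3 when scaled to the 75th percentile, 29 and 0 with no normalization, 1269 and 1 with no filter, 1715 and 2 of 14 members with the authors' values, and 0 and 0 with the replicate number as a block. The replicate number is also the column on the slide, so that the block is a slide position. Deviations from the group means had correlations of -0.07 to 0.18 between same-numbered mice and of -0.15 to 0.13 between others. With 4 arrays per group these cannot show whether the numbers pair the mice, and the block leaves fewer degrees of freedom. Among the members, 2 DEGs became 0 with normexp, the median signal, the 75th percentile, no normalization, the block, and without Co replicates 1, 2 or 3 or Pg replicate 1, and 1 without Co replicate 4 or Pg replicate 2 or 4, with no filter, with the trend or with all 8 arrays above background. The authors' values gave 0 among 14 members, without the *Agpat6* DEG probe. DEGs over all probes were 94 with normexp, 108 with the median signal, 283 with the 75th percentile, 27 with no normalization, 318 with probes above background on all 8 arrays, 106 with the authors' values and 0 with the block. With 1 array left out, the calls ran from 3 (without Co replicate 3) to 2378 over all probes, the DEGs from 3 to 697, and the members' calls from 0 (without Co replicates 2 and 3 and Pg replicate 1) to 3. The brightest probes of the 36 pathway genes had 0 calls, 2 with the intensity trend, and 0 to 2 with 1 array left out.

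The median change of upstream minus downstream probes was -0.12, -0.08 with normexp, and -0.09 with the median signal, the 75th percentile or no normalization, with every Pg array below every Co array each time. It ran from -0.14 to -0.11 with 1 array left out. The authors' table gave no such pair. This measure and its recomputation were chosen after seeing the data. Among the differences of member probes under the settings listed in the processing, 317 kept their direction and side of the limit, 38 lost the limit, 3 gained it and 7 changed sign. All 38 losses were of the 4 called probes, and most of the 317 were of probes with no call to lose. The call held in 11 of 16 settings for *Agpat6* at base 1915 and in 8 of 17 at base 1524. It held in 4 of 16 each for *Agpat2* at base 727 and *Agpat5* at base 10157. The 7 were *Agpat9* at base 2809 (0.02 without Co replicate 1, 0.00 without Pg replicate 2, range with 1 array left out -0.14 to 0.02), *Gpam* at base 6121 (0.01 without Co replicate 4, 0.02 without Pg replicate 3, range -0.10 to 0.02), *Gpam* at base 2595 (0.02 with the median signal, 0.01 with the authors' values) and *Lpin1* at base 255 (-0.18 with the authors' values). The gains were *Lpin1* at base 4346 (limma adjusted p 0.0875 with the median signal, 0.0913 with the trend) and *Dgat2* (0.0942 with the trend). The causes were not tested.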
